A study of Homo sapiens and Mus musculus with 10 samples.

Results

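The clustered histone genes carry a cluster symbol and are mostly replication-dependent histone genes. They were examined here in a human and a mouse myeloid line treated with the KAT6A inhibitor WM-1119. Members were all rows of the deposited tables whose symbol, in capitals, began with HIST1H, HIST2H, HIST3H or HIST4H. This took 71 of 27800 human rows and 69 of 24493 mouse rows, 140 of 52293 in all, and each member was placed in class H1, H2A, H2B, H3 or H4 by its symbol. MOLM-13 was derived from a human acute myeloid leukaemia with an MLL fusion gene. Here 3 libraries came from cells given 4 µM WM-1119 for 4 days and 3 from cells given DMSO. ER-Hoxa9 cells are mouse myeloid progenitors held immature by a HOXA9 protein that depends on estrogen. It gave 2 libraries after 2 µM WM-1119 for 4 days and 2 with DMSO, and all 4 cultures were grown with β-estradiol and medium conditioned with stem cell factor. The study asked how blocking KAT6A changes transcription in these cells. The labels do not state whether replicates were separate cultures, so p-values measure only the spread among the libraries at hand, and that spread may be technical.

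Histone genes of the clusters are transcribed mainly in S phase, when new DNA must be packed into nucleosomes. H2A, H2B, H3 and H4 form the nucleosome core, and H1 binds the linker DNA between cores. Most of their transcripts have no introns and no polyA tail. They end just after a short stem-loop, which the stem-loop binding protein SLBP holds during processing, translation and decay. Some members can also be read past the stem-loop to a downstream polyA signal, most often in cells that have left the cycle. Libraries made by polyA selection therefore report the tailed minority of these transcripts, whereas libraries made after removal of ribosomal RNA report both forms. KAT6A, an acetyltransferase of the MYST family, acts mainly on H3. The labels say only that total RNA went to a sequencing company, so the selection used was not known here, and all levels below are those of the transcripts the libraries captured.

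Values were TPM, a share of a library scaled for transcript length, and each library summed to 1000000. The number of members at 1 TPM or more was 37 to 45 per MOLM-13 library and 58 to 60 per ER-Hoxa9 library. In MOLM-13 the libraries numbered 3 stood apart in both groups. The summed level of 28 genes of S phase and DNA replication was 2915, 2589 and 1432 TPM in WM-1119 libraries 1, 2 and 3, against 2937, 2218 and 1006 TPM in DMSO libraries 1, 2 and 3. HBA1, a globin of red cells, stood at 158 TPM in WM-1119 library 3 and at 95.2 TPM in DMSO library 3, and at 0.439 TPM or less in the other 4. RN7SK, an RNA without a polyA tail, was at 171, 172 and 739 TPM with WM-1119 and at 118, 164 and 333 TPM with DMSO, and it was chosen after its values were seen. RMRP, another such RNA, was likewise highest in library 3 of each group, at 67.5 TPM with WM-1119 and 51.3 TPM with DMSO. RPPH1, also without a tail, had no such order, at 21.0, 18.1 and 24.3 TPM with WM-1119 and at 6.12, 17.7 and 17.4 TPM with DMSO. Nor had TERC, another such RNA, at 0.255, 0.252 and 2.40 TPM with WM-1119 and at 1.26, 0.256 and 1.03 TPM with DMSO. Of 10 myeloid markers listed, 9 reached a mean of 1 TPM in MOLM-13 and 10 in ER-Hoxa9. SPI1 stood at 248 to 320 TPM in MOLM-13 and Spi1 at 85.6 to 149 TPM in ER-Hoxa9. In MOLM-13 KIT stood at 0.435 TPM or less, and MPO was lowest in the number 3 libraries, at 15.2 TPM with WM-1119 and 10.6 TPM with DMSO. The 10 markers summed to 3546 and 3612 TPM with WM-1119 and to 1632 and 2961 TPM with DMSO in ER-Hoxa9, without overlap. Their part in the results was not tested. LCK, CD2 and MS4A1, markers of T and B cells, were listed at 0 in every MOLM-13 library. Cd3e, Cd3g, Cd2 and Ms4a1 were listed at 0 in every ER-Hoxa9 library. The 6 B cell genes listed, Ms4a1 included, summed to 82.3 and 87.4 TPM with WM-1119 and to 48.3 and 65.6 TPM with DMSO in ER-Hoxa9, without overlap, and their part in the results was not tested. The 5 T cell genes with a row summed to 2.00, 7.23 and 5.71 TPM with WM-1119 and to 3.24, 17.2 and 15.9 TPM with DMSO in MOLM-13, with overlap but lower in each same-numbered pair. Nearly all of this was CD3D, whereas CD3G lay above DMSO, at 0.305, 0.183 and 0.230 TPM with WM-1119 against 0.150, 0.0574 and 0.151 TPM with DMSO. In ER-Hoxa9 the T cell genes summed to 8.30 and 6.93 TPM with WM-1119 and to 10.5 and 9.68 TPM with DMSO, without overlap. The part of T cell genes in the results was not tested.

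In MOLM-13 the summed level of the clustered histone genes differed between WM-1119 and DMSO by less than it did among the libraries of a group. Their summed level was 417, 342 and 554 TPM in WM-1119 libraries and 395, 511 and 467 TPM in DMSO libraries. The groups overlapped, with means of 438 ± 108 and 458 ± 58.7 TPM (SD, n = 3 each) and a ratio of 0.956, WM-1119 over DMSO. Between same-numbered libraries the ratio was 1.05, 0.669 and 1.19. It was 0.837 with both number 3 libraries left out. Although S phase genes were lowest in the number 3 libraries, the histone sum was not: it was 0.143, 0.132 and 0.387 of the S phase sum in WM-1119 libraries 1, 2 and 3, and 0.135, 0.231 and 0.464 of it in DMSO libraries 1, 2 and 3. No test was made on sums, since the members were a chosen set.

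The core histones H2B and H2A supplied most of this level, and no class separated the groups. H2B summed to 219, 137 and 221 TPM with WM-1119 and to 196, 189 and 170 TPM with DMSO, a ratio of 1.04. H2A summed to 102, 113 and 159 TPM with WM-1119 and to 99.6, 177 and 134 TPM with DMSO, a ratio of 0.913. The H2B groups overlapped, and so did the H2A groups. H4 summed to 49.4, 52.9 and 114 TPM with WM-1119 and to 59.7, 77.3 and 122 TPM with DMSO. The number 3 library was the highest of its group in H4, and the ratio was 0.836. H1 summed to 26.2, 24.4 and 29.6 TPM with WM-1119 and to 20.0, 42.7 and 29.3 TPM with DMSO, a ratio of 0.873. H3 summed to 20.1, 14.6 and 30.7 TPM with WM-1119 and to 19.5, 25.5 and 12.7 TPM with DMSO. The H3 ratio was 1.13 with all libraries and 0.771 without the number 3 pair, in which WM-1119 stood at 2.42 times DMSO. Without HIST1H1C, which held 91.0% of the class, the H1 ratio was 1.30.

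**Figure D1:**
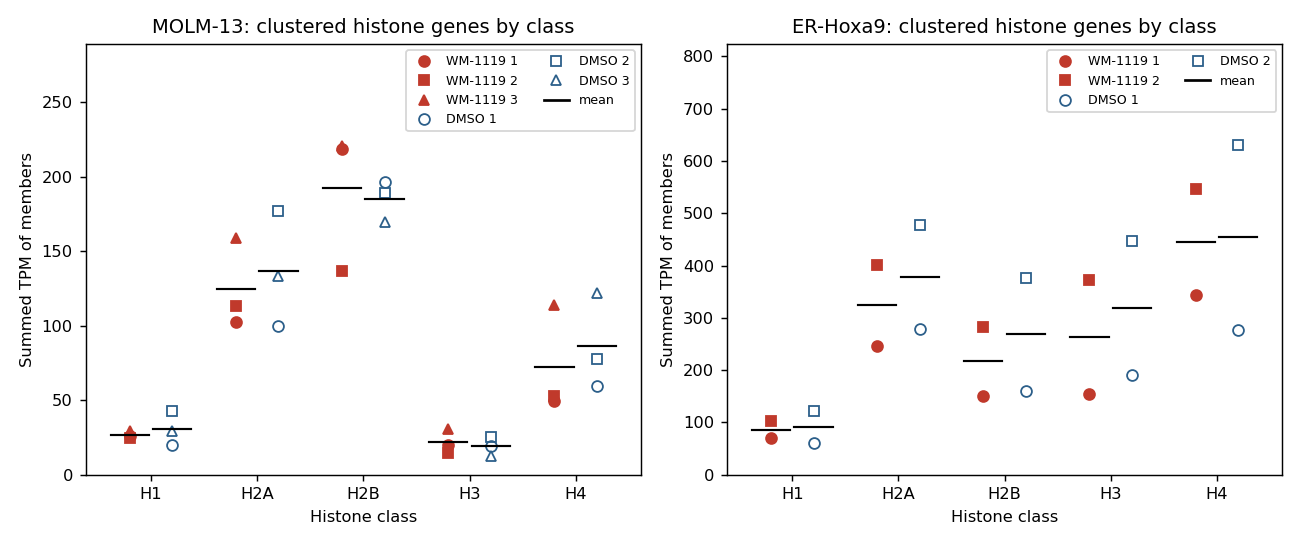
Summed TPM of the clustered histone genes by class (x axis) in every library of MOLM-13 (left) and ER-Hoxa9 (right), with WM-1119 filled, DMSO open, marker shape for the library number and a bar at each mean. The WM-1119 and DMSO libraries overlap in every class of both lines, and in ER-Hoxa9 library 2 lies above library 1 in every class.

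A few members dominated in MOLM-13: 4 of the 71 made up at least 50% of the summed level, and the 5 most abundant held 57.2%. HIST1H2BK, an H2B gene known also as a polyadenylated transcript, stood at 159, 81.2 and 142 TPM with WM-1119 and at 137, 94.5 and 106 TPM with DMSO. Its groups overlapped, and its log2 difference was 0.14 ± 0.29 (SE). HIST1H2AC, an H2A gene with the same property, stood at 28.8, 38.8 and 53.1 TPM with WM-1119 and at 25.8, 83.2 and 58.3 TPM with DMSO, and its log2 difference was -0.35 ± 0.43. HIST2H2AA4 stood at 27.9, 34.2 and 46.0 TPM with WM-1119 and at 38.2, 45.0 and 28.8 TPM with DMSO. HIST2H2AA3, its near-identical neighbour, was not analysed here, so how reads were shared between the copies is uncertain. The same holds for HIST2H4B and HIST2H3A, whose copies HIST2H4A and HIST2H3C were not analysed here.

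The linker gene HIST1H1C stood at 24.6, 21.6 and 25.3 TPM with WM-1119 and at 18.04, 41.5 and 25.7 TPM with DMSO. The WM-1119 values lay inside the DMSO range, with a log2 difference of -0.17 ± 0.29. Of the other H1 genes only HIST1H1E and HIST1H1B passed a mean of 1 TPM, and HIST1H1T, the testis H1, was above 0 in 1 library. Among H4 genes, HIST1H4K stood at 14.7, 14.01 and 28.5 TPM with WM-1119 and at 22.5, 26.2 and 47.2 TPM with DMSO. Each WM-1119 library lay below the DMSO library of its own number, although the groups overlapped. The log2 difference of HIST1H4K was -0.71 ± 0.36, and its SE was 0.0819 with the library number as a block. HIST2H4B stood at 18.5, 14.9 and 37.1 TPM with WM-1119 and at 12.3, 21.1 and 37.9 TPM with DMSO, and its groups overlapped. The most abundant H3 gene, HIST1H3H, stood at 6.94, 3.89 and 7.37 TPM with WM-1119 and at 9.38, 9.95 and 2.22 TPM with DMSO, and its groups overlapped too.

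**Figure D2:**
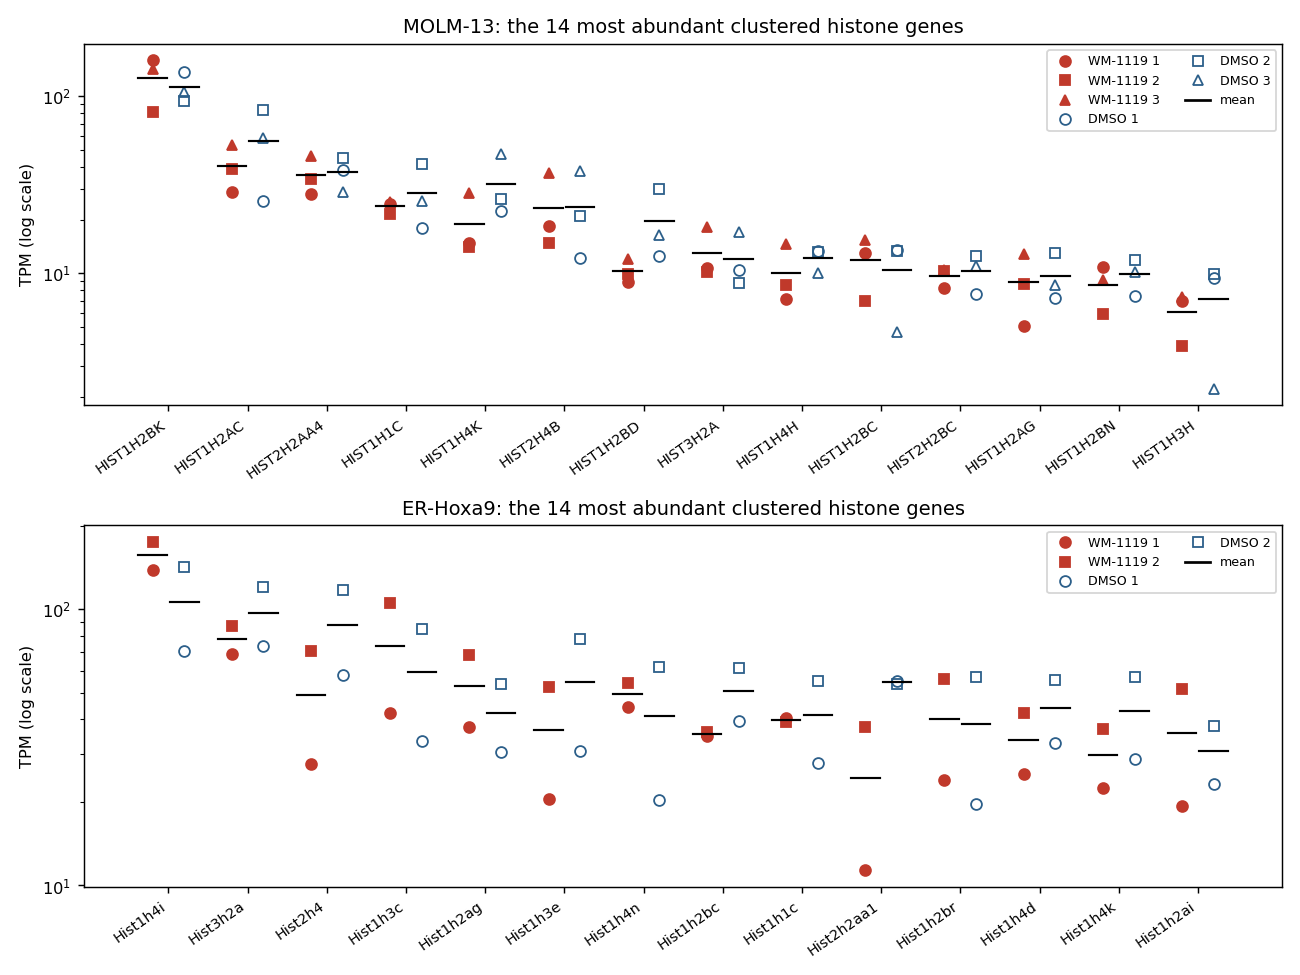
TPM (log scale) of the 14 most abundant clustered histone genes of each line in every library, with WM-1119 filled, DMSO open and a bar at each group mean. Among those shown, the groups do not overlap for HIST1H2BD in MOLM-13 and for Hist1h2bc and Hist2h2aa1 in ER-Hoxa9, all lower in WM-1119.

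For a test, limma was run on log2(TPM + 1) of every gene whose mean reached 1 TPM, without a replicate block, and p-values were adjusted over all genes of a line. On this scale the fold change of a low gene is understated. In MOLM-13, 44 members were tested. Of the 27 others, 10 were listed at 0 in every library, among them the testis genes HIST1H2AA and HIST1H2BA, and the highest had a mean of 0.937 TPM. No member passed an adjusted p of 0.05 in MOLM-13, where 1 of 12436 genes did (0.00804%), and every member had an adjusted p of 0.999985. A positive log2 difference was found for 23 members and a negative one for 21, against 61.5% and 38.5% of all genes tested. After median-of-ratios scaling it was negative for 26 of the 44, against 52.5% of all genes, and without the number 3 pair for 29 of 41, against 43.5%. The median was 0.01 over members and 0.05 over all genes, and the median SE was 0.36 for members and 0.23 for all genes. This fit leaves the library number out, so the SEs given for MOLM-13 genes hold the difference between numbers. With the number as a block the median SE was 0.27 for members and 0.0958 for all genes.

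At an unadjusted p under 0.05, 3 of the 44 members were higher with WM-1119 (6.82%, against 2.08% of all genes) and 2 were lower (4.55%, against 0.965%). The 3 higher ones, HIST1H2AL, HIST1H3F and HIST1H3B, averaged 0.529, 0.399 and 0.649 TPM with DMSO and passed the filter only through WM-1119. HIST1H2AD, 1 of the 2 lower, passed it only through DMSO, with a WM-1119 mean of 0.381 TPM. The counts therefore depend on the filter. None of the 5 held after adjustment. MOLM-13 libraries of 1 number deviated together over all genes, so the fit was also run with the replicate number as a block. With the block 5 members were higher (11.4%, against 13.2% of all genes), the same 3 among them, and 2 lower (4.55%, against 4.91%). The lowest adjusted p with the block was 0.112, for HIST1H4K. All WM-1119 libraries lay above all DMSO libraries for 3 tested members (6.82%, against 4.54% of all genes) and below them for 1 (2.27%, against 2.43%). The 3 above, HIST1H2AL, HIST1H3B and HIST1H1B, had DMSO means of 0.529, 0.649 and 0.693 TPM and passed the filter only through WM-1119. With the filter ignored, 4 of the 71 members lay wholly above and 3 wholly below, so these counts depend on the filter.

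The largest differences among members in MOLM-13 lay in both directions. HIST1H2AL, an H2A gene, stood at 3.98, 0.927 and 3.14 TPM with WM-1119 and at 0.695, 0.704 and 0.188 TPM with DMSO. All 3 WM-1119 values lay above the DMSO values, and the log2 difference was 1.18 ± 0.39 (limma, unadjusted p = 0.0178). HIST1H3F stood at 1.67, 0.707 and 2.95 TPM with WM-1119 and at 0, 0.239 and 0.957 TPM with DMSO, with overlap and a log2 difference of 0.96 ± 0.39. HIST1H4A had a log2 difference of 0.80 ± 0.73, with overlap. HIST1H3B and HIST1H1B, the other tested members that lay wholly above DMSO, averaged 1.79 and 1.40 TPM with WM-1119, against 0.649 and 0.693 TPM with DMSO. On the low side, HIST1H2BD, an H2B gene known also as a polyadenylated transcript, stood at 8.93, 9.94 and 12.0 TPM with WM-1119 and at 12.5, 30.1 and 16.4 TPM with DMSO. Its WM-1119 values all lay below the DMSO values, by a small margin between WM-1119 library 3 and DMSO library 1, and the log2 difference was -0.79 ± 0.31 (limma, unadjusted p = 0.0381). HIST1H2AD was listed at 0, 0 and 1.14 TPM with WM-1119 and at 2.39, 3.06 and 0.755 TPM with DMSO, with a log2 difference of -1.16 ± 0.44. HIST1H4I had a log2 difference of -0.89 ± 0.71. Both HIST1H2AD and HIST1H4I overlapped between groups.

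**Figure D3:**
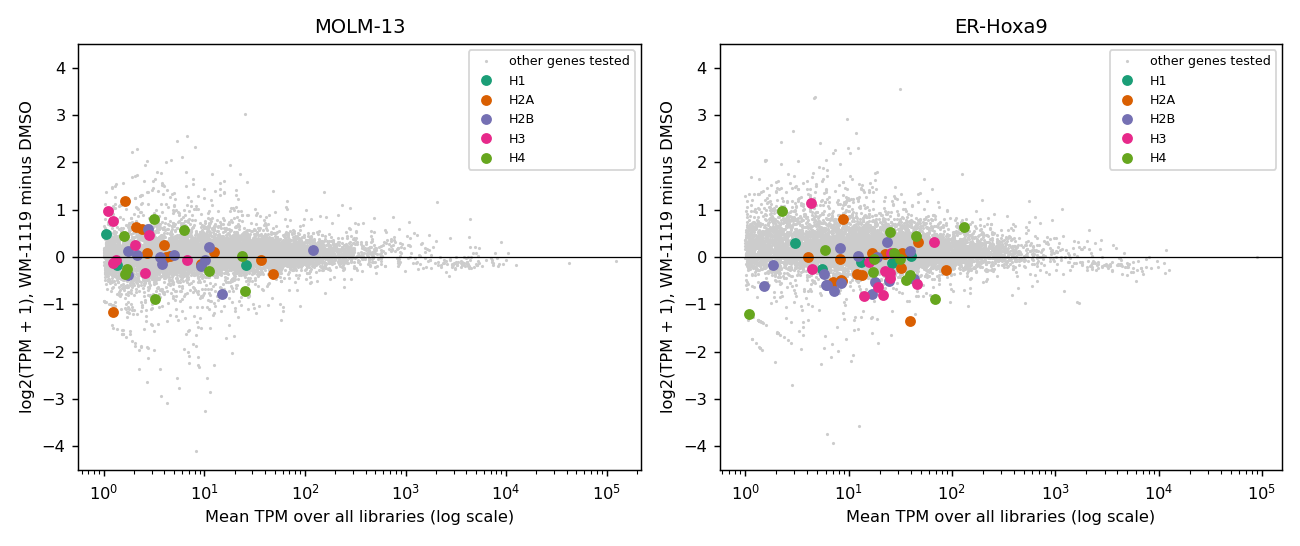
Difference in log2(TPM + 1), WM-1119 minus DMSO, against the mean TPM over all libraries (log scale), for the tested clustered histone genes coloured by class and all other tested genes in grey. Members of MOLM-13 (left, 44) lie on both sides of 0, with 23 positive and 21 negative, and those of ER-Hoxa9 (right, 61) are negative for 39 and positive for 22.

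In ER-Hoxa9, whose table was normalized separately, the clustered histone genes summed to more TPM than in MOLM-13 and were spread over more genes. Their summed level was 966 and 1704 TPM with WM-1119 and 967 and 2053 TPM with DMSO. Library 2 was higher than library 1 in both groups, and the groups overlapped, with means of 1335 ± 522 and 1510 ± 768 TPM (SD, n = 2 each) and a ratio of 0.884. The ratio was 0.999 between the libraries numbered 1 and 0.830 between those numbered 2. With 1 library left out it was 1.38 without DMSO library 2, 1.13 without WM-1119 library 1, 0.650 without DMSO library 1 and 0.640 without WM-1119 library 2. The direction of the sum therefore depended on which library was left out. It took 13 members to make up 50% of the summed level, and the 5 most abundant held 28.3%.

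By class in ER-Hoxa9, H4 led with 344 and 546 TPM in WM-1119 libraries and 277 and 630 TPM in DMSO libraries, a ratio of 0.981. H2A summed to 247 and 400 TPM with WM-1119 and to 279 and 478 TPM with DMSO, a ratio of 0.855. H3 summed to 155 and 372 TPM with WM-1119 and to 190 and 446 TPM with DMSO, a ratio of 0.828. In each of these classes the difference between libraries 1 and 2 was larger than that between treatments. H2B summed to 150 and 283 TPM with WM-1119 and to 160 and 377 TPM with DMSO, a ratio of 0.808. H1 summed to 70.2 and 102 TPM with WM-1119 and to 61.01 and 122 TPM with DMSO, a ratio of 0.940. Without DMSO library 2 all 5 class ratios were above 1, up to 1.61 for H4 and 1.41 for H1, and without DMSO library 1 all 5 were below 1. By cluster the ratio was 0.940 for HIST1, 0.633 for HIST2, 0.803 for HIST3 and 1.94 for HIST4, which has 1 gene, and the groups overlapped in each. HIST2 had 7 of its 9 tested genes negative in ER-Hoxa9, where 39 of all 61 members were, against 28.1% of all genes. In MOLM-13 its ratio was 1.04, and 5 of its 8 tested genes were positive, close to the share of all genes (61.5%).

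The most abundant mouse member was Hist1h4i, an H4 gene, at 139 and 176 TPM with WM-1119 and 70.8 and 143 TPM with DMSO. Its WM-1119 library 1 lay just below DMSO library 2, and its log2 difference was 0.63 ± 0.35. Hist3h2a, an H2A gene, stood at 69.1 and 87.0 TPM with WM-1119 and at 73.6 and 121 TPM with DMSO, and its groups overlapped. Hist2h4 stood at 27.5 and 70.6 TPM with WM-1119 and at 57.9 and 118 TPM with DMSO, overlapping, with a log2 difference of -0.89 ± 0.53. Hist1h3c, the most abundant H3 gene, stood at 42.1 and 105 TPM with WM-1119 and at 33.4 and 85.2 TPM with DMSO. The H1 gene Hist1h1c stood at 40.3 and 39.0 TPM with WM-1119 and at 27.8 and 55.2 TPM with DMSO. For Hist1h3c and Hist1h1c the groups overlapped, with log2 differences of 0.31 ± 0.59 and 0.01 ± 0.32.

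Of the 69 mouse members 61 were tested. The 8 others had means of at most 0.300 TPM, and 4 of them were listed at 0 in every library, among them Hist1h1t, Hist1h2aa and Hist1h2ba, whose products are known from testis. No member passed an adjusted p of 0.05 in ER-Hoxa9 (limma), where 4 of 11362 genes did (0.0352%), and the lowest adjusted p of a member was 0.389. At an unadjusted p under 0.05, 0 members were higher with WM-1119, against 11.6% of all genes, and 1 was lower (1.64%, against 1.13%). A negative log2 difference was found for 39 of the 61 members (63.9%), against 28.1% of all genes, and a positive one for 22 (36.1%), against 71.9%. The median was -0.25 over members and 0.12 over all genes. After median-of-ratios scaling, which moves the median of all genes to -0.01, it was negative for 49 of the 61, against 52.6% of all genes. The median SE was 0.50 for members and 0.15 for all genes. This fit leaves the library number out, so the SE and the unadjusted p hold the difference between libraries 1 and 2. With the number as a block more members had an unadjusted p under 0.05, most of them lower with WM-1119. Those counts are given in the last section. Members share sequence and library, so these counts are a description.

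No member lay wholly above DMSO in ER-Hoxa9, against 40.3% of all genes, and 5 lay wholly below it (8.20%, against 7.94%). These 5 were Hist2h2aa1, Hist1h2ac, Hist1h2bc, Hist1h2bq and Hist1h3d, from classes H2A, H2B and H3. Hist2h2aa1 stood at 11.3 and 37.5 TPM with WM-1119 and at 55.0 and 53.9 TPM with DMSO, a log2 difference of -1.35 ± 0.52 (limma, unadjusted p = 0.0489, adjusted p = 0.389). Its DMSO values were close together, whereas its WM-1119 values lay far apart. Its close copy Hist2h2aa2 stood at 15.1 and 2.96 TPM with WM-1119 and at 9.98 and 5.23 TPM with DMSO, higher with WM-1119 in number 1 and lower in number 2, and reads of the copies may have been split between them. Hist1h2bc stood at 34.7 and 36.1 TPM with WM-1119 and at 39.4 and 61.6 TPM with DMSO, a log2 difference of -0.47 ± 0.22. Hist1h3d stood at 11.3 and 20.4 TPM with WM-1119 and at 21.4 and 34.1 TPM with DMSO, and Hist1h2ac at 4.43 and 6.82 TPM with WM-1119 and at 7.68 and 9.15 TPM with DMSO. For both, the nearest WM-1119 and DMSO libraries lay closer together than the libraries of either group. The largest positive differences were those of Hist2h3c1 (1.14 ± 1.00), Hist4h4 (0.96 ± 0.68) and Hist1h2ad (0.80 ± 0.55), all with overlap, and Hist2h3c1 and Hist4h4 were each listed at 0 in 1 DMSO library. Each of these 3 differences turned negative when 1 DMSO library was left out, library 2 for Hist2h3c1 and library 1 for the other two. Hist1h4m was above 0 in DMSO library 2 alone, at 4.31 TPM.

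In ER-Hoxa9 the library number separated the members more than the treatment did. Both libraries numbered 2 lay above both numbered 1 for 51 of the 61 tested members, against 13.3% of all genes, and below them for 1, against 21.4%. The median ratio of library 2 to library 1 was 2.13 over members and 0.982 over all genes. By class it was 1.90 for H1, 2.00 for H2A, 2.37 for H2B, 2.50 for H3 and 2.11 for H4. Genes of S phase moved less: their sum was 2330 and 2494 TPM in WM-1119 libraries 1 and 2, and 1692 and 2185 TPM in DMSO libraries 1 and 2. Rpph1, an RNA without a polyA tail that was chosen after its values were seen, stood at 120 and 287 TPM with WM-1119 and at 150 and 216 TPM with DMSO, higher in library 2 of both groups. Rmrp, another such RNA, stood at 93.3 and 70.2 TPM with WM-1119 and at 45.8 and 56.3 TPM with DMSO, with no such order. Terc, also without a tail, had the reverse order, at 5.63 and 4.34 TPM with WM-1119 and at 10.2 and 4.15 TPM with DMSO. The part of RNA selection or of S phase in the difference between numbers was not tested, and in bulk RNA fewer cells in S phase and less histone RNA per cell cannot be told apart.

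**Figure D4:**
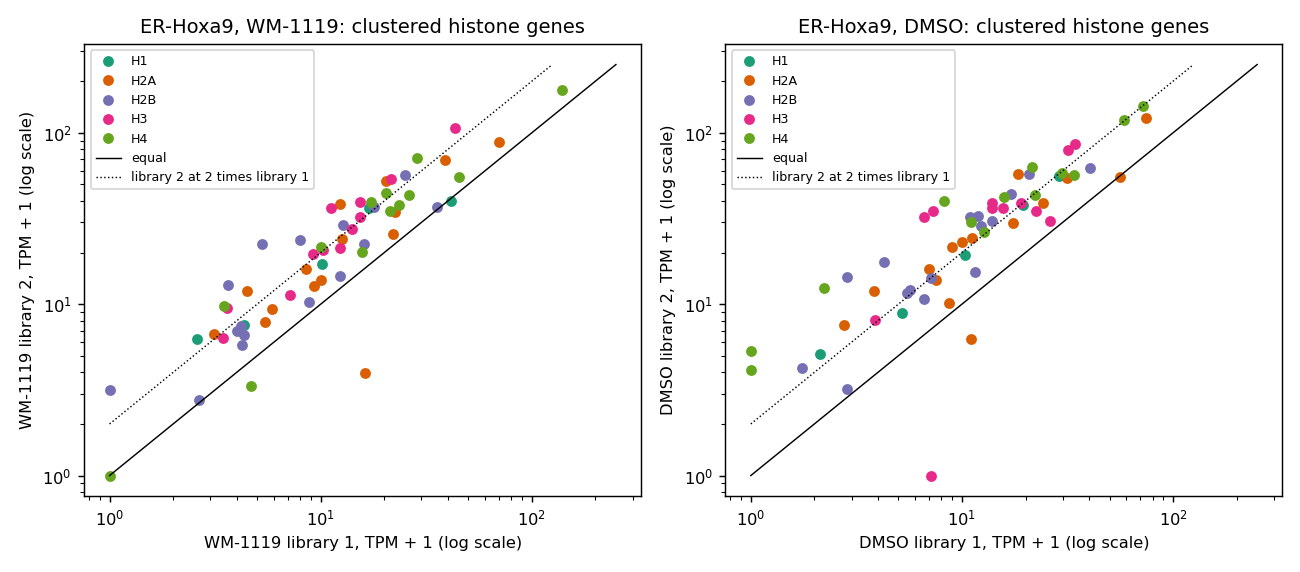
TPM + 1 of each tested clustered histone gene in ER-Hoxa9 library 2 (y) against library 1 (x), both on log scales, for WM-1119 (left) and DMSO (right), coloured by class, with a solid line at equality and a dotted line where TPM + 1 in library 2 is 2 times that in library 1. Most members lie above the solid line in both panels, and 51 of 61 are higher in both number 2 libraries than in both number 1 libraries.

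The human gene models show where these transcripts can end. All 71 human members matched a gene of GENCODE release 29 on GRCh38, 56 on chromosome 6, 14 on chromosome 1 and 1 on chromosome 12, and 68 are protein-coding. The other 3 are pseudogenes. HIST1H2APS1 and HIST2H2BA were listed at 0 in every library. HIST2H2BC averaged 10.0 TPM and is counted in the H2B sums and among the tested members. Whether the authors used this annotation is not given in the sources used here. The consensus of the histone stem-loop, which leaves some stem and loop bases free, was searched on the transcript strand and found in 30 members. The models of 33 others stop at the coding sequence, so that no match was possible there. The sequences below are shown because they are the 3′ end signal common to the family, taken from abundant members of classes H2A, H2B, H3 and H4, with the match in capitals and 5 flanking bases on each side. They lie at chr6:26124664-26124689 (+) for HIST1H2AC, chr1:149851569-149851594 (+) for HIST2H2AA4, chr6:26158582-26158607 (+) for HIST1H2BD, chr6:27810511-27810536 (+) for HIST1H3H, chr6:26285126-26285151 (-) for HIST1H4H and chr1:149860764-149860789 (-) for HIST2H4B.
HIST1H2AC: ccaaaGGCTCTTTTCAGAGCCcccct
HIST2H2AA4: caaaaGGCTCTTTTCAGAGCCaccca
HIST1H2BD: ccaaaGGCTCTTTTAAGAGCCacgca
HIST1H3H: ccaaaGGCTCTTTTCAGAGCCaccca
HIST1H4H: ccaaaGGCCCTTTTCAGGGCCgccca
HIST2H4B: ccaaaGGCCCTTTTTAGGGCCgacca
The form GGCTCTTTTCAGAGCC was found in 15 of the 30 members, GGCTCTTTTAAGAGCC in 5 and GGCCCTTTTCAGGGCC in 5.

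Members whose models hold a polyA signal near an end had the higher median level in MOLM-13. A polyA signal (AATAAA or ATTAAA within 60 bases of a transcript end) was found in 21 members, whose median level was 6.63 TPM and which held 48.8% of the summed level. The signal was not required to lie past the stem-loop. In HIST1H4J, whose model ends 6 bases after the stem-loop, it lies before it. The 50 members without one held 51.2%. Of these, the 33 modelled as coding sequence only had a median of 1.09 TPM, but they include HIST1H2BK, HIST1H1C and HIST1H4K. A signal downstream of the coding sequence could not be found in those 33, so the groups also differ in how far their models reach. TPM divides by the modelled length, so a short model and a long one are not read on equal terms. The members with a polyA signal summed to 166, 174 and 282 TPM with WM-1119 and to 174, 288 and 227 TPM with DMSO. Those without one summed to 250, 168 and 273 TPM with WM-1119 and to 221, 224 and 240 TPM with DMSO. Both sets overlapped between treatments, with ratios of 0.903 and 1.01, and 9 of 18 and 14 of 26 tested members had a positive log2 difference. Among the 15 members whose model runs at least 100 bases past the stem-loop to a polyA signal, HIST1H2AC extends 1128 bases beyond it, HIST1H4H 1655 and HIST2H4B 1314.

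**Figure D5:**
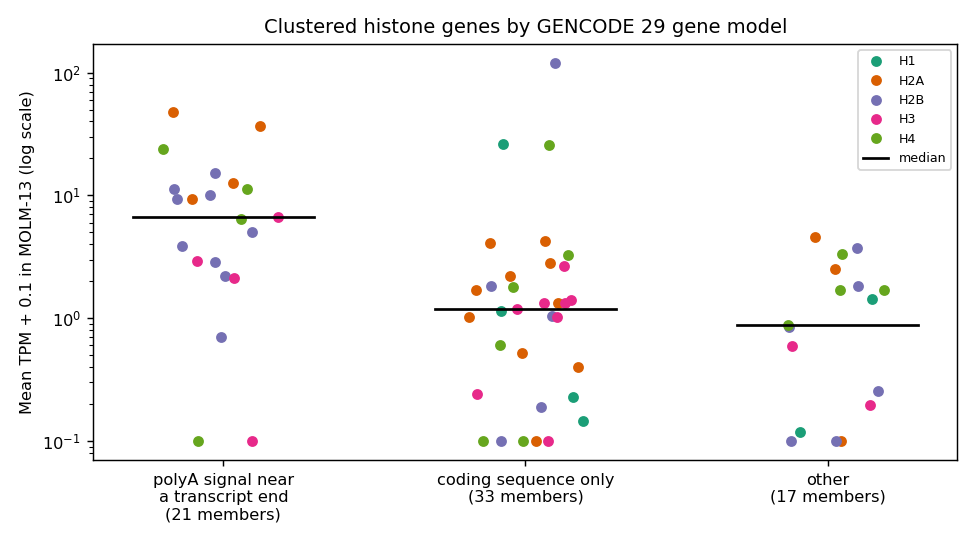
Mean TPM + 0.1 in MOLM-13 over all 6 libraries (log scale) of the 71 clustered histone genes, grouped by their GENCODE 29 model and coloured by class, with a bar at each group's median. The 21 members with a polyA signal near a transcript end have a median of 6.63 TPM and the 33 modelled as coding sequence only 1.09 TPM, although the single highest member is among those 33.

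The members known also as polyadenylated transcripts took a different share in each line. In MOLM-13 HIST1H1C, HIST1H2AC, HIST1H2BC, HIST1H2BD, HIST1H2BK, HIST2H2BE and HIST4H4 held 56.9%, 47.2% and 45.6% of the summed level with WM-1119, and 52.8%, 52.5% and 46.0% with DMSO. In ER-Hoxa9 the 6 of these with a row held 11.3% and 6.99% with WM-1119, and 10.0% and 8.33% with DMSO. The lines lay far apart and the treatments overlapped within each line. The tables are of different species and were normalized separately, so the lines are set side by side without a test. Of 51 symbols found in both tables, 44 had the higher mean TPM in ER-Hoxa9; a shared symbol does not show that the genes are direct counterparts. HIST1H2BK was the reverse, with a mean of 120 TPM in MOLM-13 and of 18.8 TPM for Hist1h2bk in ER-Hoxa9. HIST1H3C was listed at 0 in every MOLM-13 library, whereas Hist1h3c averaged 66.5 TPM in ER-Hoxa9.

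Human H2A and H2B genes often lie head to head. Modelled starts of 13 pairs of members lay within 1000 bases and ran in opposite directions. HIST1H3J with HIST1H2BO is a pair of H3 and H2B, and HIST1H2BO is counted again with HIST1H2AM. The models of HIST1H2BK and HIST1H2AH start 331 bases apart, and the genes averaged 120 and 0.920 TPM in MOLM-13. Both models hold the coding sequence only, so this distance is between coding sequences. HIST1H2BC and HIST1H2AC start 219 bases apart and averaged 11.2 and 48.0 TPM. In the first pair the H2B gene was the higher and in the second the H2A gene. HIST3H2A averaged 12.6 TPM and HIST3H2BB, 234 bases away, 0.155 TPM. These 3 pairs have the largest ratios between partners, while 9 others differed by at most 3.66-fold and 1 was listed at 0 on both sides.

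RefSeq promoter windows of GRCh38.p14, 250 bases before to 50 after the gene start, were matched for 58 of the 71 human members. The octamer ATTTGCAT, the site of POU2F1 in H2B promoters, was found on either strand in 21 of them (36.2%, against 1.77% of 35116 windows). It was found in 11 of 15 H2A and 9 of 13 H2B windows, in 1 of 12 H3 windows, and in 0 of 6 H1 and 0 of 12 H4 windows. The H3 window is that of HIST1H3D, which RefSeq places on the same stretch as the window of HIST1H2AD, so it is counted in both classes. TATAAA was found in 39 (67.2%, against 11.5%) and CCAAT in 49 (84.5%, against 34.6%). CCAAT was present in every matched H1, H2A, H2B and H3 window but in 3 of 12 H4 windows. A match is not evidence of a bound site, and windows of head-to-head pairs can overlap. The windows of the 2 most abundant human members are shown, HIST1H2BK at chr6:27146809-27147108 (-) and HIST1H2AC at chr6:26123922-26124221 (+), with matches to the 3 motifs on either strand in capitals. Matches on opposite strands overlap at the first TATAAA of HIST1H2BK.
HIST1H2BK: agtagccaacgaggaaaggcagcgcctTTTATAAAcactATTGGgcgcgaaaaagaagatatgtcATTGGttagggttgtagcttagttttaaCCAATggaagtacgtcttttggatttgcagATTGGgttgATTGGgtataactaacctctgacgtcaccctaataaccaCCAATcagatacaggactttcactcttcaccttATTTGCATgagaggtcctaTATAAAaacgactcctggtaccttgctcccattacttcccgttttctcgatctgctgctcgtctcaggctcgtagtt
HIST1H2AC: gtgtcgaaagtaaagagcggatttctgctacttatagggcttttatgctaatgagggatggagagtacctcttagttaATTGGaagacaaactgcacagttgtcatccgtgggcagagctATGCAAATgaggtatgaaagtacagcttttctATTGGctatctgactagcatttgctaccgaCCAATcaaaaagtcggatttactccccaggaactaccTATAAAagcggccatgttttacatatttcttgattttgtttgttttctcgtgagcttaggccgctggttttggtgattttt

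None of the listed genes that make, end or handle histone transcripts was called in either line. Over all genes tested, 61.5% were positive in MOLM-13 and 71.9% in ER-Hoxa9. After median-of-ratios scaling, 52.5% of all genes were negative in MOLM-13 and 52.6% in ER-Hoxa9. Of 16 genes of histone gene transcription and 3′ end processing, 9 had a positive log2 difference in MOLM-13 and 11 in ER-Hoxa9, and 7 in each line after median-of-ratios scaling. SLBP, which binds the stem-loop, stood at 67.0, 57.4 and 44.7 TPM with WM-1119 and at 73.6, 46.0 and 34.5 TPM with DMSO in MOLM-13, with overlap. Slbp stood at 102 and 115 TPM with WM-1119 and at 79.4 and 88.0 TPM with DMSO in ER-Hoxa9, above DMSO without overlap as for 40.3% of all genes, a log2 difference of 0.37 ± 0.12 that missed the threshold (limma, adjusted p = 0.347). NPAT, the coactivator that starts transcription of the clusters, had log2 differences of -0.04 ± 0.18 in MOLM-13 and -0.01 ± 0.13 (Npat) in ER-Hoxa9. Of the histone chaperones, which carry histones to DNA, 10 of 16 were positive in MOLM-13 and 10 of 15 in ER-Hoxa9, and 9 and 8 after median-of-ratios scaling. S phase genes were positive for 26 of 28 in MOLM-13 and 28 of 28 in ER-Hoxa9, and for 24 and 23 after median-of-ratios scaling. PCNA, the replication clamp, stood at 461, 350 and 247 TPM with WM-1119 and at 472, 288 and 168 TPM with DMSO in MOLM-13, with overlap. Pcna stood at 434 and 468 TPM with WM-1119 and at 326 and 390 TPM with DMSO in ER-Hoxa9, likewise without overlap (log2 difference 0.34 ± 0.13; limma, adjusted p = 0.391).

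Histone variants outside the clusters, whose transcripts mostly carry polyA tails (H2AFX is also made in a stem-loop form), exceeded the clustered genes in every library. In MOLM-13 they summed to 1764, 1665 and 1544 TPM with WM-1119 and to 1698, 1579 and 1206 TPM with DMSO, with overlap. In ER-Hoxa9 they summed to 4238 and 4272 TPM with WM-1119 and to 3290 and 3885 TPM with DMSO, without overlap. The clustered sum was 0.236, 0.205 and 0.359 of the variant sum with WM-1119 in MOLM-13, and 0.233, 0.324 and 0.387 of it with DMSO. In ER-Hoxa9 it was 0.228 and 0.399 of it with WM-1119, and 0.294 and 0.528 with DMSO. The groups overlapped in both lines, and within numbers the ratio in ER-Hoxa9 was lower with WM-1119. Log2 differences of the variants were positive for 7 of 10 tested in MOLM-13 and 9 of 10 in ER-Hoxa9, against 61.5% and 71.9% of all genes. After median-of-ratios scaling, where 52.5% and 52.6% of all genes were negative, they were positive for 7 and 8. Of the variants 0 were called. H1f0, a linker histone of resting and differentiating cells, stood at 10.3 and 11.7 TPM with WM-1119 and at 3.98 and 4.78 TPM with DMSO in ER-Hoxa9. Its groups did not overlap, as for 40.3% of all genes, and its log2 difference was 1.16 ± 0.16 (limma, adjusted p = 0.216). It was picked out after its values were seen. In MOLM-13 H1F0 had a log2 difference of -0.25 ± 0.48, with overlap.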

How the data were processed

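For each line the authors deposited TPM by gene symbol. Salmon, hg38 and mm10 are named in the submitters' processing notes. The Salmon version, the annotation and any polyA selection were not given in the sources used here. Each deposited TPM column sums to 1000000 and keeps no read depth, so counting intervals cannot be given, and an exact 0 is read as listed at 0. Columns were matched to samples by treatment and number in their names, and among the libraries 0 pairs were identical. The mouse columns carry another line name and were taken as ER-Hoxa9, the mouse line of the series.

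Genes whose mean reached 1 TPM in a line entered limma 3.58.1 (R 4.3.3; lmFit and eBayes, trend on) as log2(TPM + 1). Calls are two-sided at p under 0.05 after Benjamini-Hochberg adjustment over all genes of the line. The fit was tested on simulated data, with differences added only to genes at higher levels and no deviation shared by libraries of a number. Tested MOLM-13 members had a median of 3.22 TPM, so the simulation does not cover most of them. Sums over members got no test. Members, lists and the rule for named genes were chosen with earlier results of these data known. That rule took the 3 most abundant members of each class, the 3 largest differences in each direction and their namesakes in the other line; members named only for non-overlap, pairing or a level of 0 were picked once their values were known. In MOLM-13 same-numbered samples deviated together from their group means (r over all genes was 0.52, 0.44 and 0.61 for the pairs 1, 2 and 3), so the numbers pair these samples. Over the tested members alone r was weaker, at 0.32, 0.05 and 0.30, and it reached 0.15 between libraries of different numbers. The fit reported has no block. Counts from the blocked fit are given beside it for MOLM-13 and in the last section for ER-Hoxa9. Alternatives were another pseudocount, no filter, median-of-ratios scaling, microRNA entries removed, each library left out, a replicate block and, chosen after seeing the data, the number 3 pair left out. Sequences are from GENCODE 29 transcripts and RefSeq promoters, and mouse sequences were not analysed here. Plots were made in Python 3.11.15 with matplotlib 3.10.9.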

Additional observations from a re-analysis of the deposited data

How the results depend on the processing

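No clustered histone gene was called in either line under any alternative run, and the replicate block left the count at 0 in both. Numbers in ER-Hoxa9 give only 2 pairs, with a correlation of same-numbered deviations of 0.21; with the block 4 members there were higher (6.56%, against 15.5% of all genes) and 17 lower (27.9%, against 2.4%) at an unadjusted p under 0.05, against 0 and 1 without it, and the median SE was 0.179 for members and 0.132 for all genes. Ratios of summed TPM kept within the spread of the libraries except for H1 in MOLM-13 without its most abundant member (1.30), H3 in MOLM-13 without the number 3 pair (0.771), and, over leaving out each library, H1 (0.704 to 1.41) and H4 (0.706 to 1.61) in ER-Hoxa9. That spread was wide in ER-Hoxa9, where the direction turned within it: with each library left out the ratio ran from 0.640 to 1.38 for all members, 0.652 to 1.16 for H2A, 0.560 to 1.36 for H2B and 0.486 to 1.39 for H3. Leaving out a MOLM-13 library breaks a pair, and in ER-Hoxa9 it leaves 1 sample in a group, assumed to vary like the others. TPM keep no depth, so the precision of low members is limited in a way that could not be measured. Differences of uncalled members changed sign in places, among them the 3 largest positive ones of ER-Hoxa9, and the cause was not tested.

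Among the other settings, the log2 difference of HIST1H2BG in MOLM-13 was -0.0352 after median-of-ratios scaling, with or without the replicate block, -0.00355 with microRNA entries removed and -0.0319 at a pseudocount of 0.1, and that of HIST2H4B was -0.0534 after median-of-ratios scaling, with or without the block. Without the number 3 pair, with or without the block, the log2 difference was -0.45 for HIST1H2BC, -0.0929 for HIST1H2BG, -0.00186 for HIST1H2BK and -0.0365 for HIST2H3A. In ER-Hoxa9 median-of-ratios scaling, with or without the block, gave log2 differences of -0.13 for Hist1h1c, -0.13 for Hist1h2bk, -0.0194 for Hist1h2br and -0.0502 for Hist1h3h. With each library left out, the log2 differences that changed sign in MOLM-13 ranged, lowest to highest, as follows: HIST1H1C -0.44 to 0.14, HIST1H1E -0.50 to 0.16, HIST1H2AC -0.82 to 0.00653, HIST1H2AG -0.44 to 0.17, HIST1H2BC -0.23 to 0.53, HIST1H2BG -0.32 to 0.40, HIST1H2BK -0.0499 to 0.43, HIST1H3H -0.63 to 0.25, HIST2H2AA4 -0.24 to 0.11, HIST2H3A -0.11 to 1.28, HIST2H4B -0.37 to 0.41, HIST3H2A -0.14 to 0.36. With each library left out, the log2 differences that changed sign in ER-Hoxa9 ranged, lowest to highest, as follows: Hist1h1b -0.64 to 0.14, Hist1h1c -0.47 to 0.49, Hist1h1d -0.56 to 0.35, Hist1h1e -0.68 to 0.42, Hist1h2ad -0.0195 to 1.62, Hist1h2ag -0.10 to 0.74, Hist1h2bg -1.20 to 0.16, Hist1h2bk -0.60 to 0.61, Hist1h2br -0.62 to 0.86, Hist1h3c -0.35 to 0.98, Hist1h3e -1.22 to 0.0931, Hist1h3f -0.79 to 0.27, Hist1h3h -0.65 to 0.83, Hist1h4a -1.08 to 1.40, Hist1h4h -0.57 to 0.48, Hist1h4k -0.96 to 0.00484, Hist1h4n -0.33 to 1.22, Hist2h3c1 -0.28 to 2.55, Hist3h2a -0.64 to 0.0732, Hist4h4 -0.0558 to 1.98.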
